A study of Mus musculus with 15 samples.

Results

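Glycogen is the store of glucose that a muscle cell builds up when fuel is plentiful and breaks down when it is needed. Glycogen synthase adds glucose units from UDP-glucose and the branching enzyme makes the branch points, while glycogen phosphorylase releases the units again. Phosphorylase kinase switches phosphorylase on, and protein phosphatase 1, brought to the glycogen particle by targeting subunits, reverses that step and activates the synthase. In the heart, glycogen is a ready reserve of fuel for contraction.

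The 9 genes described here were chosen by symbol for these roles: Phkg1, Phka1, Phkb, Ppp1r3c, Pygm, Pygb, Gys1, Gbe1 and Ugp2. They are 9 of the 12393 genes measured, and every one of their 18 probe sets that was paired with a single gene entered, of 20380 such probe sets in all. No threshold on a value set the choice. It was made with the wild-type differences from sham already known, in which Phkg1 and Ppp1r3c had passed the test, so those differences are given below as a description, without a p-value. For the members, p-values are given only for Max Dep against Min Dep and for septic against sham knockout hearts. Counts of genes called against wild-type sham, and p-values of marker genes there, are also a description only.

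Total RNA of 15 whole mouse hearts, taken 48 h after surgery, was hybridised to oligonucleotide arrays, 3 arrays in each of 5 groups. In caecal ligation and perforation (CLP) the blind gut is tied and pierced, and leaking bacteria cause sepsis. Wild-type C57/BL6 mice formed the groups Max Dep and Min Dep, both after CLP, and a sham-operated group whose caecum was only mobilised. Knockout mice, congenic B6.129P2-Nos2tm1Lau/J and labelled iNOS KO, which lack the inducible nitric oxide synthase in every cell type, formed a CLP group and a sham group. All mice, sham included, had isoflurane anaesthesia, an opened abdomen, buprenorphine and saline, and then ketamine and xylazine for a measurement of contractility. The sources used here do not say how Max Dep and Min Dep were defined, nor the ages of the mice.

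Wild-type values are standardised scores: each probe set was scaled to the same spread over the 9 arrays, so a score carries neither a level nor a fold change, and a small and a large change look alike. Knockout values are centred differences that behave as logs of an unknown base. The genotypes lie in separate tables from different array models, and their sizes are not compared. The column of knockout CLP replicate 1 lay between the other CLP columns in 76% of probe sets, against 11.5% to 34.4% for the other columns, and its spread was smaller (SD 0.683 against 0.978 to 1.09). Whether it was computed from other columns is not known. It was left out of the tests, and its values, named separately, are not independent of the other CLP arrays. Nos2 ranged from -1.43 to 0.57 in knockout CLP and from -0.72 to 1.06 in knockout sham arrays. Such centred values cannot check the deletion, nor can they show that cardiomyocyte markers are present.

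The promoters of Phkg1 and Ppp1r3c are shown because these members were already known to be lower in wild-type CLP than in sham hearts. The bases upstream of each gene are from RefSeq (GRCm38.p6), 5′ to 3′ on the minus strand that both genes are read from, with capitals marking each E-box (CANNTG, the core bound by many helix-loop-helix factors). Ppp1r3c lies at chr19:36731731-36736604 and Phkg1 at chr5:129863431-129879134. The stretches are chr19:36736605-36736854 for Ppp1r3c and chr5:129879135-129879338 for Phkg1.
Ppp1r3c: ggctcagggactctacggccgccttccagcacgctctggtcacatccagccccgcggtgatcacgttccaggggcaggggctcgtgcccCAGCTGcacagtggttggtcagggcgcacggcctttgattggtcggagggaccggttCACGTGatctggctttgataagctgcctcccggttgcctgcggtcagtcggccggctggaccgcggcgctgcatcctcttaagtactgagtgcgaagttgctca
Phkg1: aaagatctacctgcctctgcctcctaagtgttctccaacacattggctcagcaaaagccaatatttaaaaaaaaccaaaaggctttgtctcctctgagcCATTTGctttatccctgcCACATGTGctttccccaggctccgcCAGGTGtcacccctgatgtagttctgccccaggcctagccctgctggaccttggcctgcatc
Windows of 300 bases, 250 before and 50 after each annotated start, were searched on both strands for 3 motifs. The E-box CANNTG was found in 9 of the 10 windows of the members (Ugp2 has 2 starts) and in 72.3% of all 32851 windows. The Ppp1r3c window held 2 matches and the Phkg1 window 5, of which 1 lies outside the stretch shown and 2 overlap in the run cacatgtg. The hypoxia response core ACGTG was found in 4 of the 10 windows and in 19.6% of all windows. It matched 3 times in the Ppp1r3c window and not in that of Phkg1. The palindromic E-box CACGTG, which contains ACGTG on either strand, was found once, in the Ppp1r3c window, and in 7.15% of all windows. A match is a run of letters only.

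Phosphorylase kinase is built of catalytic and regulatory subunits. Phkg1 encodes the muscle form of its catalytic gamma subunit, and within each genotype it was lower in every septic heart than in any sham heart. In wild-type Max Dep hearts its score was -0.71, -0.76 and -0.52. In Min Dep hearts it was -0.78, -0.80 and -0.66, against 1.57, 1.48 and 1.11 in wild-type sham hearts. The 6 septic scores lay within a narrow band well below the sham scores, and the Max Dep and Min Dep scores overlapped. The mean was -0.71 ± 0.11 in septic hearts (SD, n = 6) and 1.39 ± 0.24 in sham hearts (SD, n = 3), a difference of -2.09 ± 0.12 (SE). Both probe sets of Phkg1 were lower, by -2.02 and -2.16.

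Between the septic groups Phkg1 scored -0.66 ± 0.13 in Max Dep and -0.75 ± 0.08 in Min Dep hearts (SD, n = 3 each). The difference of 0.09 ± 0.13 (SE) did not pass (limma, adjusted p = 0.840). The sign of this small difference turned when the standardisation of the arrays was undone, to -0.06.

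In knockout hearts Phkg1 stood at -1.29 and -0.79 in the CLP arrays tested, and at -0.75 in the CLP array left out, against 0.70, 0.13 and 0.53 in sham. The groups tested did not overlap. The array left out was also below sham, but it is not independent of the other CLP arrays and adds no support. The difference between CLP and sham was -1.49 ± 0.44 log units (SE, 2 against 3 arrays), with an adjusted p of 0.248 from limma's eBayes test, so it did not pass. With all 6 knockout arrays it was -1.40, with an adjusted p of 0.0723 (limma). That fit counts the array left out as if it were independent, so no support is read from its p-value. The probe sets differed in size: 1425164_a_at was lower by -2.18, with groups that did not overlap, and 1422315_x_at by -0.81, with groups that overlapped. The suffix _x marks a probe set that can also pick up similar sequences.

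**Figure D1:**
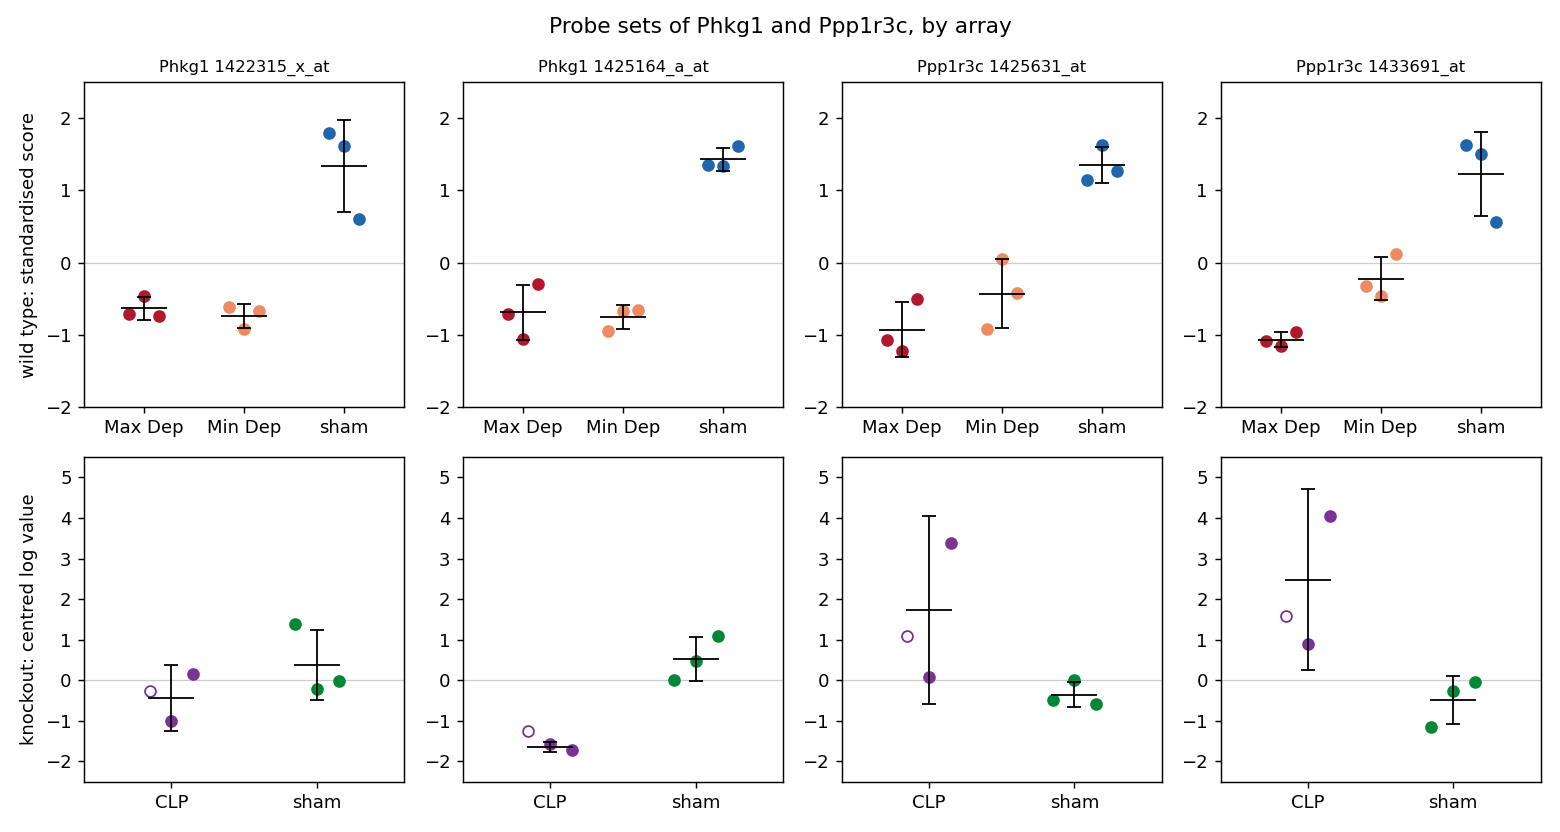
Each probe set of Phkg1 and Ppp1r3c is plotted by array, in wild-type hearts above (standardised score) and in knockout hearts below (centred log value, base not given). Points are arrays, the open point is the knockout CLP array left out of the tests, and bars are the mean and SD of the filled points (n = 3, and n = 2 for knockout CLP). The Phkg1 mean is lower after CLP in all 4 of its panels, whereas the Ppp1r3c mean is lower in wild-type and higher in knockout CLP hearts.

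The regulatory subunits were more scattered. Phka1, the muscle form of the alpha subunit, scored 1.72, -0.91 and -0.14 in Max Dep hearts and -0.81, -1.05 and -1.02 in Min Dep hearts, against 0.81, 0.92 and 0.42 in wild-type sham hearts. The Min Dep scores were all below sham, but Max Dep replicate 1 was above every sham heart. CLP and sham differed by -1.08 ± 0.56 (SE), and all 3 Phka1 probe sets were lower, by -0.78 to -1.57. Max Dep against Min Dep gave 1.18 ± 0.65 (SE, n = 3 each), which did not pass (limma, adjusted p = 0.580).

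Phkb, the beta subunit, ranged from 0.19 to 0.68 in Max Dep, from -2.53 to 0.67 in Min Dep and from -0.17 to 0.74 in sham hearts. Its only score far from the rest was Min Dep replicate 1. The septic groups differed by 1.12 ± 0.83, Max Dep over Min Dep (SE, adjusted p = 0.659 in limma). In knockout hearts neither regulatory subunit separated the groups. Phka1 lay between -0.53 and 0.39 in CLP and between -0.48 and 0.46 in sham arrays, a difference of -0.12 ± 0.52 (SE, adjusted p = 0.961 in limma). Phkb lay between -0.24 and 1.55 in CLP and between -0.49 and 0.99 in sham arrays, a difference of 0.48 ± 0.71 (SE, adjusted p = 0.865 in limma).

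Ppp1r3c encodes a targeting subunit, also known as protein targeting to glycogen, that holds protein phosphatase 1 at the glycogen particle. In wild-type hearts it was lower after CLP, and in knockout hearts its values after CLP were higher. Max Dep hearts scored -1.08, -1.19 and -0.73. Min Dep hearts scored -0.62, -0.21 and -0.15, against 1.39, 1.57 and 0.92 in sham hearts. The 3 groups did not overlap: every Max Dep heart was below every Min Dep heart, and both were below sham. The septic mean was -0.66 ± 0.43 (SD, n = 6) and the sham mean 1.29 ± 0.34 (SD, n = 3), a difference of -1.95 ± 0.20 (SE).

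Max Dep averaged -1.001 ± 0.24 and Min Dep -0.33 ± 0.26 for Ppp1r3c (SD, n = 3 each). This difference of -0.68 ± 0.23 (SE) had an unadjusted p of 0.0258 and did not pass after adjustment over all genes (limma, adjusted p = 0.454). It was negative for both Ppp1r3c probe sets, at -0.85 and -0.50. Only 1433691_at kept the Max Dep and Min Dep arrays apart, since the scores of 1425631_at overlapped.

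In knockout hearts Ppp1r3c stood at 0.49 and 3.71 in the CLP arrays tested, and at 1.34 in the array left out, against -0.83, -0.13 and -0.31 in sham. Both CLP arrays tested were above all sham values, as was the array left out, which is not independent of them. CLP replicate 3 was far above the others. The difference was 2.53 ± 0.93 log units (SE, 2 against 3 arrays) and did not pass (limma's eBayes, adjusted p = 0.354). Without CLP replicate 3 it was 0.92, and without CLP replicate 2 it was 4.13, so its size rests on 1 array. Both probe sets were higher, by 2.09 and 2.96. CLP replicate 3 exceeded CLP replicate 2 in 9 of the 9 members, as it did in 55.8% of all genes. Because the genotypes lie in separate tables, the opposite signs of Ppp1r3c were not tested against each other.

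**Figure D2:**
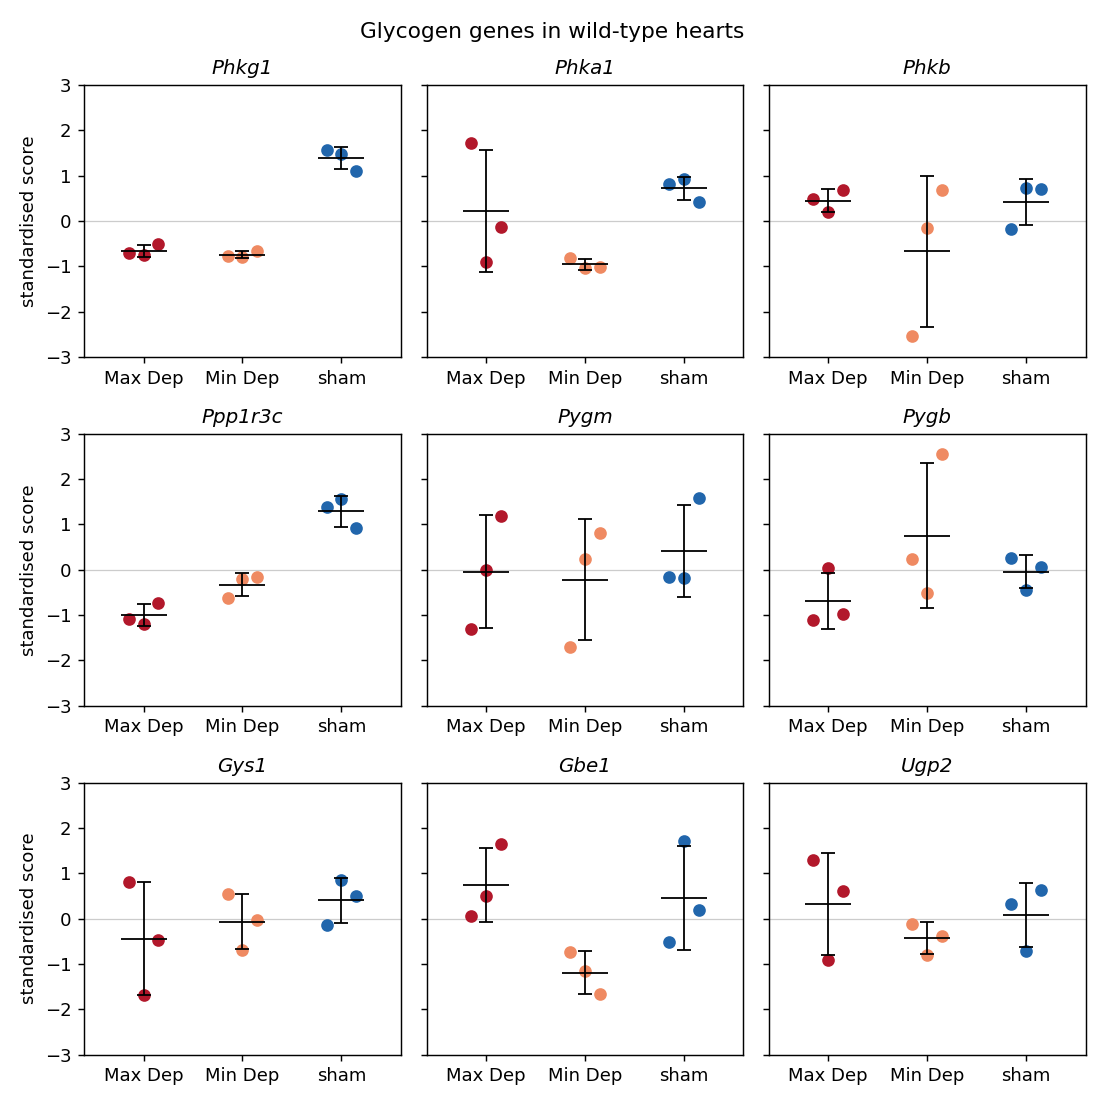
Standardised scores of the 9 genes are plotted by array for Max Dep, Min Dep and sham wild-type hearts, with bars at the mean and SD (n = 3 each). Phkg1 and Ppp1r3c show the septic arrays apart from sham, and in Gbe1 the Min Dep arrays lie below all Max Dep and sham arrays.

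The phosphorylases, which release glucose units from glycogen, showed no separation in either genotype. Pygm, the muscle form, ranged from -1.31 to 1.18 in Max Dep, from -1.71 to 0.82 in Min Dep and from -0.19 to 1.58 in sham hearts. Max Dep against Min Dep gave 0.17 ± 0.98 (SE, limma, adjusted p = 0.960). In knockout hearts Pygm spanned -1.11 to 1.45 in CLP and -1.60 to 1.08 in sham arrays, a difference of 0.08 ± 1.07 (SE, adjusted p = 0.987 in limma).

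Pygb, the form first known from brain, scored -1.10, 0.03 and -0.97 in Max Dep hearts and 0.23, -0.52 and 2.55 in Min Dep hearts, against 0.26, -0.45 and 0.06 in sham. It was the only member whose wild-type CLP mean was not below sham, with a difference of 0.08 ± 0.71 (SE). The Max Dep minus Min Dep difference of -1.43 ± 0.83 (SE) did not pass (limma, adjusted p = 0.590) and was -0.54 without Min Dep replicate 3. In knockout hearts Pygb stood at -2.59 and 0.00 in CLP, and at -1.13 in the array left out, against -1.03, 0.67 and 1.94 in sham. These groups overlapped, and the difference of -1.82 ± 1.08 (SE) did not pass (adjusted p = 0.597 in limma).

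On the side of synthesis, Gbe1, the branching enzyme, had the widest gap between the septic groups among the 9 members. It scored 0.07, 0.50 and 1.65 in Max Dep hearts and -0.74, -1.15 and -1.67 in Min Dep hearts, against -0.53, 1.72 and 0.19 in sham. Every Min Dep heart was below every Max Dep and every sham heart, while Max Dep and sham overlapped. The means were 0.74 ± 0.82 in Max Dep and -1.19 ± 0.46 in Min Dep (SD, n = 3 each), a difference of 1.93 ± 0.70 (SE). It had an unadjusted p of 0.0332 and did not pass (limma, adjusted p = 0.473). Gbe1 rests on a single probe set. In knockout hearts it stood at 0.00 and 1.76 in CLP, and at 0.59 in the array left out, against -1.19, 0.46 and -0.21 in sham. These groups overlapped, with a difference of 1.20 ± 0.73 (SE, adjusted p = 0.611 in limma).

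Gys1, the muscle glycogen synthase, ranged from -1.68 to 0.82 in Max Dep, from -0.69 to 0.53 in Min Dep and from -0.14 to 0.84 in sham hearts. Its 2 probe sets went opposite ways: after wild-type CLP 1416737_at was higher by 0.57 and 1450196_s_at had a difference of -1.88, so the gene mean of -0.66 ± 0.60 (SE) describes neither. In knockout hearts the same probe sets differed by 0.95 and -0.46, with a gene mean of 0.24 ± 0.63 (SE, adjusted p = 0.925 in limma). The suffix _s marks a probe set that can match more than one transcript. The Max Dep minus Min Dep difference was -0.38 ± 0.70 (SE, adjusted p = 0.864 in limma).

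Ugp2, the enzyme that makes UDP-glucose, ranged from -0.92 to 1.29 in Max Dep, from -0.81 to -0.11 in Min Dep and from -0.72 to 0.63 in sham hearts. Its 5 probe sets spread from -1.41 to 0.96 in the wild-type difference between CLP and sham, around a gene mean of -0.13 ± 0.56 (SE). Max Dep against Min Dep gave 0.76 ± 0.65 (SE, adjusted p = 0.709 in limma). In knockout hearts all 5 probe sets were higher after CLP, by 0.53 to 1.22. The gene mean differed by 0.95 ± 0.70 (SE) and did not pass (adjusted p = 0.688 in limma). Its values of 0.05 and 1.43 in CLP overlapped with -1.20, 0.53 and 0.05 in sham.

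**Figure D3:**
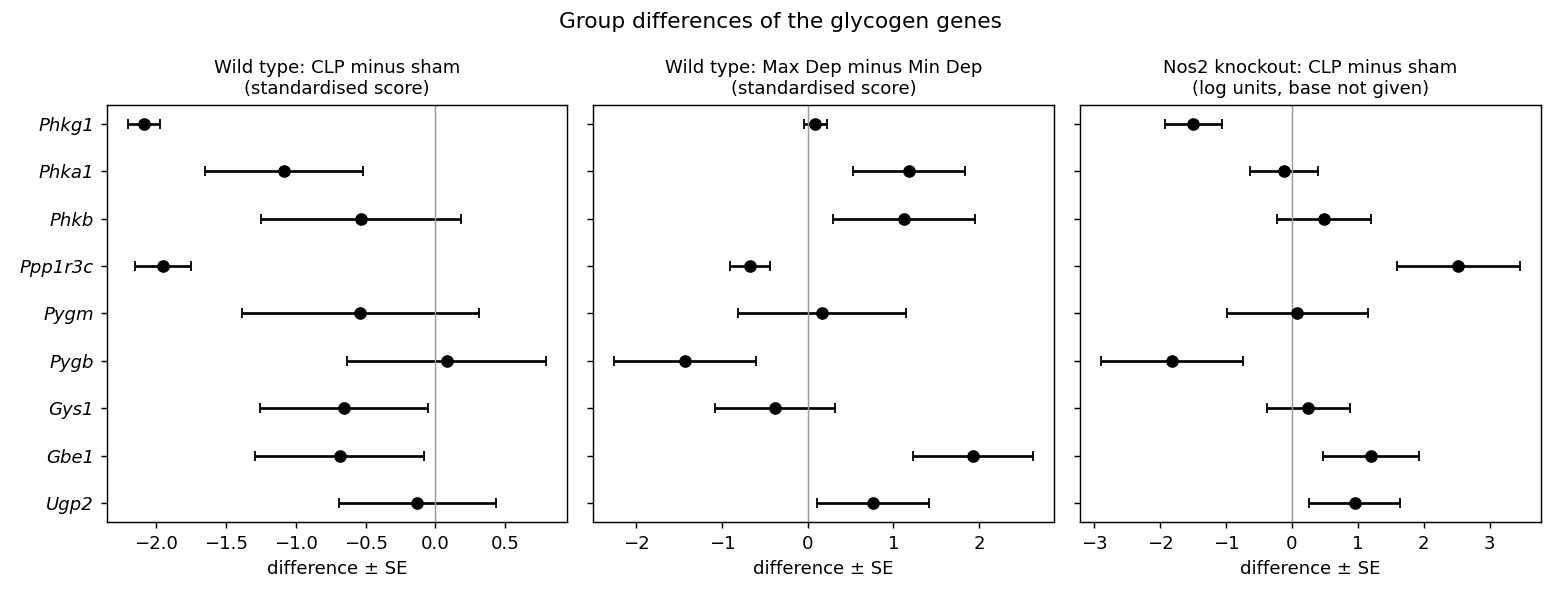
Differences with their standard errors are plotted for the 9 genes in wild-type CLP minus sham, Max Dep minus Min Dep (both in standardised score) and knockout CLP minus sham (log units, base not given). Phkg1 and Ppp1r3c have the narrowest errors in the wild-type panels. Between the wild-type and knockout comparisons with sham, Phkg1 and Phka1 keep their side, and Ppp1r3c and all the other genes change side. Wild-type probe sets were scaled to the same spread, so a large group difference leaves little spread within groups.

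Over the whole group, 8 of 9 members were lower in wild-type CLP than in sham hearts, as were 49.2% of all genes, with a median difference of -0.66 against 0.02 over all genes. The count was 6 of 9 without sham replicate 3, where Pygm and Ugp2 changed sign, and 4 of the 7 members left without _a, _s and _x probe sets. The comparisons with sham share the sham hearts and informed the choice of the members. The counts and medians of this paragraph, those above included, were shaped by that choice, and nothing is read from them. At an adjusted p below 0.05 the comparisons with sham held 2 members for CLP (Phkg1 and Ppp1r3c, 0.718% of all genes). They held the same 2 for Max Dep (0.452%) and Phkg1 alone for Min Dep (0.0565%). With eBayes moderation no member is called in any of them, and leaving out wild-type sham replicate 1, sham replicate 2, Min Dep replicate 1 or Max Dep replicate 1 also takes the count of members to 0 in each. With the 5′ minus 3′ difference of the control probe sets as a covariate, Ppp1r3c is called in none of them and Phkg1 is not called for Max Dep, and for CLP 1 gene is called in place of 89. That covariate was itself lower in every septic array but Max Dep replicate 2 than in any wild-type sham array. Arrays of the 2 groups did not overlap in 2 members for CLP against sham (12% of all genes), 2 for Max Dep against sham (26.4%) and 4 for Min Dep against sham (23.4%). The 4 were Phkg1, Phka1, Ppp1r3c and Gbe1, all lower in Min Dep. The median difference from sham was -0.49 for Max Dep (all genes -0.09) and -1.09 for Min Dep (all genes 0.12).

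For Max Dep against Min Dep, 0 members passed in limma, beside 0% of all genes. At an unadjusted p below 0.05 there were 2 members, Ppp1r3c and Gbe1, and 9.81% of all genes, and limma's moderated test also called 0 genes. The same 2 members had arrays that did not overlap, as did 15.3% of all genes. Of the 9 members 3 were lower in Max Dep, and the median was 0.17 against -0.08 over all genes.

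For knockout CLP against sham, 0 members passed, beside 0% of all genes, both with limma's eBayes test and without moderation. At an unadjusted p below 0.05 there were 2 members, Phkg1 and Ppp1r3c, and 11.9% of all genes. Arrays of these 2 members did not overlap, as in 28.9% of all genes. Of the members 3 were lower and 6 higher (6 were lower without CLP replicate 3), with a median of 0.24 against 0.03 over all genes. In both of these comparisons, 2 of 9 members is too small a count to set apart from the share over all genes.

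**Figure D4:**
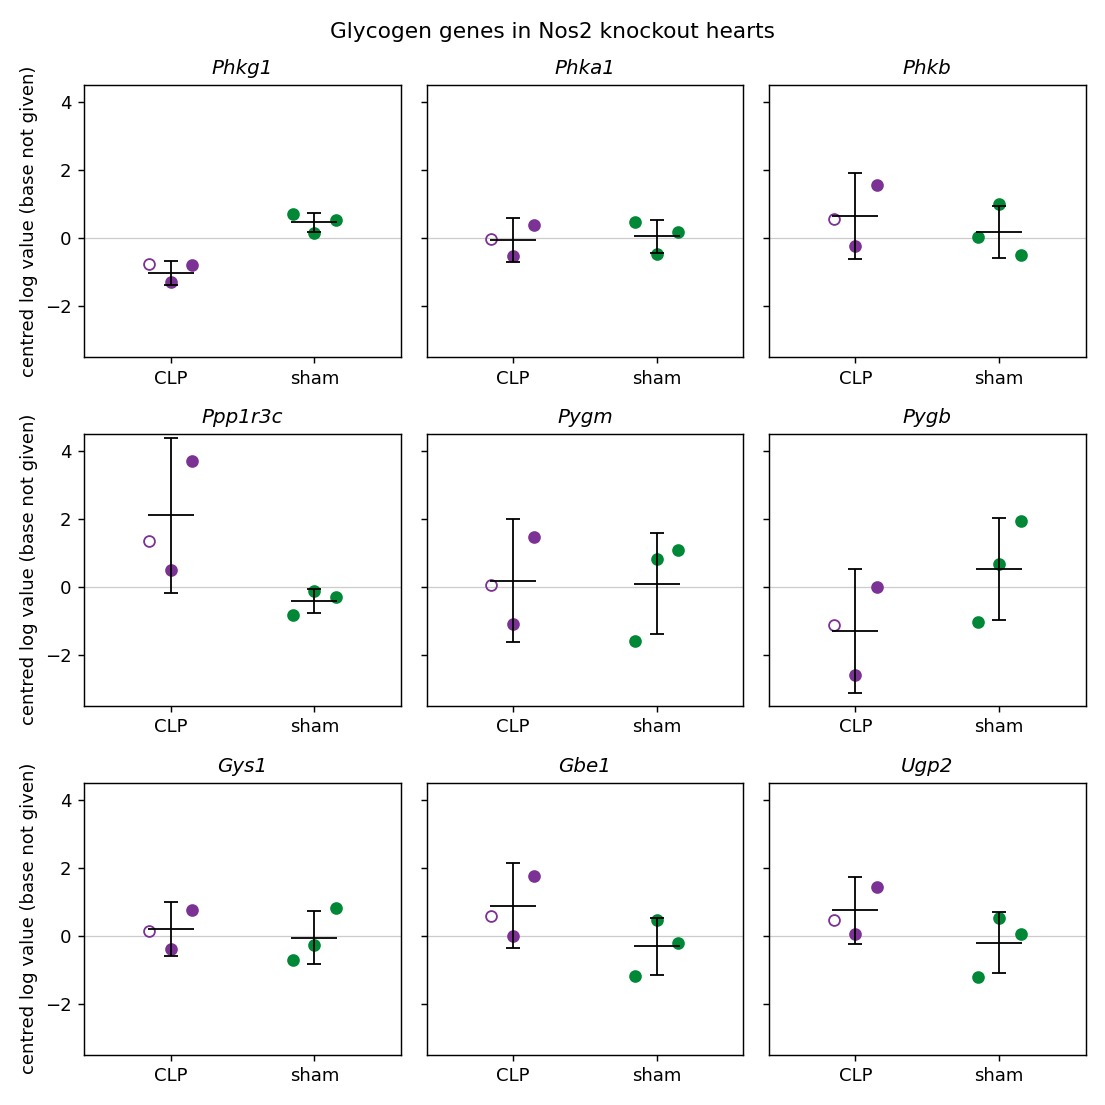
Centred log values of the 9 genes (base not given) are plotted by array for knockout CLP and sham hearts. The open point is the CLP array left out of the tests, and bars are the mean and SD of the filled points (n = 2 for CLP, n = 3 for sham). Phkg1 is below sham and Ppp1r3c above sham in all CLP arrays, and the other genes overlap.

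Other genes whose wild-type scores ran closest to Phkg1 were ranked by the root mean square difference over the 9 arrays, as a description. The 5 likest were Syap1 (0.159), Lamb1, a laminin chain (0.202), Atpaf2, an assembly factor of the mitochondrial ATP synthase (0.244), Palmd (0.253) and Opa1, which acts in fusion of the inner mitochondrial membrane (0.277). Ppp1r3c was 24th of 12392 other genes in likeness to Phkg1 (0.348), and the remaining members ranked from 1935 to 7895. Both Phkg1 and Ppp1r3c were known to be lower in these septic arrays when chosen, and probe sets were scaled to the same spread. Their likeness to each other was therefore largely set by the choice, and nothing is read from it. For Ppp1r3c the likest were Ucp3, a mitochondrial uncoupling protein (0.221), Hadh, an enzyme of fatty acid oxidation (0.263), Pafah1b3 (0.322), Sucla2, a subunit of succinyl-CoA synthetase (0.334) and Trim35 (0.336), and Phkg1 ranked 8. In the knockout comparison, where Ppp1r3c was higher by 2.53, Ucp3 differed by -3.09, Hadh by -1.35, Sucla2 by -0.89, Trim35 by -0.77 and Pafah1b3 by 0.59. Of those likest to Phkg1, Palmd differed by -2.59 in knockout hearts, and the other 4 by -0.31 to 0.45. No gene passed in the knockout comparison, so these differences are a description only.

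Of 29 other glycogen genes listed, 17 were measured, and none passed in any of the 5 comparisons in limma. This list and the kinase and glucose entry lists below were chosen with earlier results of these data known. Their counts are therefore a description only. An unadjusted p below 0.05 was found in 4 of the 17 for wild-type CLP (18.6% of all genes), 5 for Max Dep against sham (16.7%), 4 for Min Dep against sham (16.4%), 4 for Max Dep against Min Dep (9.81%) and 4 for knockout CLP (11.9%). In wild-type CLP 11 were higher and 6 lower, with a median of 0.78. Phkg2, the gamma subunit isoform known from liver, differed by 1.502 ± 0.22 (SE). Its muscle counterpart Phkg1, chosen with its difference known, differed by -2.09. In knockout CLP against sham both were lower, by -0.84 ± 0.47 for Phkg2 (SE) and by -1.49 for Phkg1, and neither passed. In wild-type CLP Stbd1, which tethers glycogen to membranes, differed by -1.61 ± 0.24 (SE). Ppp1ca, a catalytic subunit of protein phosphatase 1, differed by 1.65 ± 0.45 (SE). Against sham, Stbd1 was lower in both groups, by -0.77 in Max Dep and -2.46 in Min Dep, and Max Dep exceeded Min Dep by 1.70 ± 0.28 (SE, adjusted p = 0.267 in limma). Phkg2 differed by 0.99 in Max Dep and 2.01 in Min Dep. Other large differences were 1.92 for Ppp1ca, 1.83 for Ppp1cb, another catalytic subunit, and -1.75 for the phosphoglucomutase Pgm1 in Max Dep, and -2.06 for Pgm2 in Min Dep. Max Dep exceeded Min Dep by 1.66 in Pgm2, and differed by -1.40 in Epm2a, the glycogen phosphatase laforin. In knockout hearts 10 were higher and 7 lower; Gys2, the liver synthase, differed by -2.14, Gyg, which primes glycogen, by 1.69, and Ppp1r3a, the striated muscle targeting subunit, by 1.54.

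Of 15 listed kinase genes that act on glycogen enzymes, 10 were measured and none passed in limma. Unadjusted p-values below 0.05 numbered 6, 4, 5, 1 and 2 of the 10 in the same order of comparisons, beside the same shares of all genes (18.6%, 16.7%, 16.4%, 9.81% and 11.9%). In wild-type CLP 9 of the 10 were lower, with a median of -0.96. As the list was chosen with earlier results known, nothing is read from these counts. The catalytic subunit of protein kinase A, Prkaca, which activates phosphorylase kinase, differed by -1.96 ± 0.35, its regulatory subunit Prkar2a by -1.88 ± 0.44, and Prkag2, a subunit of AMP-activated kinase, by -1.76 ± 0.28 (SE). The exception was Prkag1, another AMP-activated kinase subunit, which differed by 1.69 ± 0.25 (SE), and by 2.06 in Max Dep against sham. No gene of this list differed between Max Dep and Min Dep by more than 0.82 in size, with -0.82 for Prkab1, 0.81 for Akt2 and 0.75 for Prkag2. In knockout hearts 7 were higher and 3 lower, with 1.37 for Prkar1a, 1.27 for Akt2 and -0.48 for Akt1.

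Of 12 listed genes of glucose entry and phosphorylation, 8 were measured and none passed in limma. None had an unadjusted p below 0.05 in the wild-type comparisons (9.81% to 18.6% of all genes) and 2 had one for knockout CLP (11.9%). In wild-type CLP 4 were higher and 4 lower, with 1.20 ± 0.56 for Slc2a1, the glucose transporter GLUT1, -1.20 ± 0.72 for Slc2a8 and -1.24 ± 0.57 for Slc2a10 (SE). G6pc3, a glucose-6-phosphatase, differed by -1.41 in Max Dep against sham and by -1.30 in Max Dep against Min Dep. Between Max Dep and Min Dep Hk2 differed by -1.34 and Hk1 by 1.11; both are hexokinases. In knockout hearts Slc2a1 was higher by 2.65 ± 0.49 (SE, adjusted p = 0.110 in limma), Hk2 by 2.12 and Hk1 by 1.56.

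Markers of blood and stromal cells differed in the same comparisons as Phkg1 and Ppp1r3c, though few passed the test, and in whole hearts fewer cells of a type and less RNA per cell cannot be told apart. Mean macrophage scores ran from 0.39 to 1.11 in Max Dep and 0.06 to 0.55 in Min Dep, against -1.40 to -0.66 in wild-type sham hearts. All 10 markers were higher, and Tyrobp (2.01 ± 0.19) and Fcer1g (2.03 ± 0.22), both adaptors of myeloid receptors, rose in CLP against sham (SE, limma, adjusted p = 0.0290 and 0.0307) and also in Max Dep. In knockout hearts they ran from 2.06 to 2.67 in CLP, against -0.63 to 0.08 in sham, and 9 of 10 were higher. Neutrophil scores ran from 0.11 to 0.74 in Max Dep and 0.05 to 0.50 in Min Dep, against -1.17 to -0.29 in wild-type sham hearts (7 of 9 markers higher), and from 1.55 to 2.75 in knockout CLP, against -0.47 to -0.04 in knockout sham (8 of 9 higher). Fibroblast scores ran from -0.55 to 0.08 in Max Dep and -1.65 to 0.37 in Min Dep, against 0.98 to 1.05 in wild-type sham hearts (8 of 8 lower), and from -1.44 to -0.15 in knockout CLP, against 0.20 to 0.87 in knockout sham (6 of 8 lower). The neutrophil markers S100a8 (1.93 ± 0.24) and S100a9 (1.92 ± 0.26), subunits of calprotectin, rose in wild-type CLP (SE, limma, adjusted p = 0.0395 and 0.0498), and S100a8 also in Max Dep. No other marker passed in any comparison, and none did in knockout hearts. With eBayes moderation 0 genes were called in wild-type CLP against sham, so S100a8, S100a9, Tyrobp and Fcer1g did not pass there. The marker lists were chosen with earlier results known, so these calls are a description only. Smooth muscle and pericyte markers were lower in 6 of 6 in both genotypes, running from -0.65 to 0.12 in Max Dep and -1.08 to 0.08 in Min Dep against 0.54 to 1.34 in sham, and from -1.68 to -1.12 in knockout CLP against 0.50 to 1.57 in knockout sham. Adipocyte markers were lower in 4 of 4 in wild-type CLP, running from -1.43 to -0.10 in Max Dep and -0.51 to 0.06 in Min Dep against 0.13 to 1.20 in sham, and in 2 of 4 in knockout hearts, from -2.21 to -0.49 in CLP against -0.64 to 1.73 in sham. Both erythroid markers measured were lower in CLP of either genotype; their means overlapped in wild-type hearts, and in knockout hearts ran from -0.79 to -0.22 in CLP against -0.16 to 1.46 in sham. The 7 endothelial markers were all lower in knockout CLP (-2.55 to -0.78, against 0.83 to 1.54 in sham), whereas 5 were higher in wild-type CLP (-0.34 to 1.02 in Max Dep and -0.22 to 0.35 in Min Dep, against -1.06 to 0.05 in sham). Cardiomyocyte markers were lower in 7 of 10 after wild-type CLP, with a median of -0.16, and in 6 of 10 in knockout hearts, with a median of -0.24. Their mean was -1.72 in knockout CLP replicate 2 and 0.95 in replicate 3, against 0.04 to 0.75 in sham, and replicate 3 was also the higher of the 2 in all 9 members, Ppp1r3c included. Skeletal muscle markers had medians of 0.02 and -0.17. Control probe sets at the 5′ end minus those at the 3′ end are a sign of RNA quality, but here only relative between arrays, since the scores carry no level. This difference ran from -1.85 to 0.53 in Max Dep and -0.56 to 0.07 in Min Dep, against 0.39 to 1.76 in wild-type sham hearts. In knockout hearts it ran from -2.06 to -0.78 in CLP, against -1.97 to 0.98 in sham. Among wild-type septic arrays only Max Dep replicate 2, at 0.53, reached the sham range, so this covariate and sepsis can hardly be told apart. With the covariate Phkg1 differed by -2.31 in wild-type CLP and Ppp1r3c by -2.33, with the loss of calls given above. Scores have no zero level, so which markers are absent cannot be said, and the part of these cells and of RNA quality in the results was not tested.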

How the data were processed

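Total RNA of 15 hearts was hybridised, 1 array per heart, and groups come from the sample titles. Replicate numbers only name arrays, and where nothing says otherwise p-values measure the spread between these arrays, whose number limits the precision. The deposited wild-type score is standardised: once a linear scaling of each array is undone, all probe sets have mean 0 and SD 1. The deposited knockout score is a centred difference from -7.78 to 8.18. The sources used here do not give the authors' software. Without intensities, no filter on dim probe sets or signal over background was available.

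Of 22690 probe sets 64 controls were left out. The platform annotation gave 20380 a single gene, 691 several genes and 1555 no gene; the 20380 were averaged into 12393 genes. Groups were compared with limma 3.58.1 in R 4.3.3, with Benjamini-Hochberg adjustment over all genes at 0.05. The 9 wild-type arrays shared 1 fit with unmoderated statistics (6 residual degrees of freedom), a choice made with the counts of both known, and knockout arrays were tested with eBayes. Knockout CLP replicate 1, of which the other 5 arrays explained an R squared of 0.745, was left out. Alternatives were moderation, probe sets as the unit, probe sets by suffix, centring, the 5′ minus 3′ difference as a covariate, fewer arrays and each array left out.

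The members and the 3 pathway and 9 marker lists were chosen with earlier results of these data known. Named genes are all members, for each list those passing in any comparison and the 3 with the largest absolute difference in each (largest differences only for pathway lists), and the 5 genes likest to Phkg1 and to Ppp1r3c. Markers are given as counts and list means. Motifs were searched in RefSeq promoters, found for all 9 members.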

Additional observations from a re-analysis of the deposited data

Results flagged for a closer look

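Ppp1r3c lay on opposite sides of sham in the 2 genotypes. So did the means of all other members except Phkg1 and Phka1, but their septic arrays overlapped with sham in both genotypes. Ppp1r3c differed by -1.95 (standardised score) between CLP and sham in wild-type hearts, where all 6 septic arrays were below all sham arrays. In knockout hearts it differed by 2.53 (log units), and both CLP arrays tested were above all sham arrays. Such arrays did not overlap in 12% of all genes in wild-type and 28.9% in knockout hearts. The knockout difference did not pass (limma's eBayes, adjusted p = 0.354). It was 0.92 without CLP replicate 3, so its size rests on 1 array. The difference between the genotypes was not tested, since genotype cannot be told apart from table and array model.

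The knockout CLP array left out of the tests holds values outside the range of the knockout sham arrays for 4 members: -0.75 for Phkg1, 1.34 for Ppp1r3c, -1.13 for Pygb and 0.59 for Gbe1. This column lies between the other CLP columns in 76% of probe sets and may have been derived from them, so its values are no independent support for theirs.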

How the results depend on the processing

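No paired analysis was possible because the labels give the arrays codes and no replicate numbers shared between groups. Wild-type CLP against sham called 89 genes (2 members), against 0 (0) with eBayes. With each probe set tested it called 513, a count of probe sets among 20380 and not of genes, as are the 220 and 112 below. It called 49 genes (1) without _a, _s and _x probe sets, which removes Phkg1 and Gbe1. The count was 179 with the standardisation undone, and 1 (1, Phkg1) with the 5′ minus 3′ covariate. Max Dep against sham called 56 (2), against 0 (0) with eBayes, 220 by probe set, 23 (1) without _a, _s and _x, 33 without _s and _x (chosen after seeing the data), 0 (0) with the covariate, and 7 (0) with only the 6 arrays. Min Dep against sham called 7 (1), against 0 (0), 112, 20 (0), 18 and 2 in the same order up to the covariate, 27 with the standardisation undone and 1 (0) with only the 6 arrays. Max Dep against Min Dep called 0, and 2 with the standardisation undone, where Phkg1 turned to -0.06415. Knockout CLP called 0, and 295 with all 6 arrays, none of them a member. The array added there is not independent of the other CLP arrays, so nothing is read from the 295.

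Leaving out 1 array gave 0 to 186 genes (0 to 2 members) for wild-type CLP, 0 to 26 (0 to 1) for Max Dep against sham, 0 to 68 (0 to 1) for Min Dep against sham, 0 to 1 (0) for Max Dep against Min Dep and 0 (0) for knockout CLP. For wild-type CLP Phkg1 stayed called without sham replicate 3, Min Dep replicate 2, Max Dep replicate 2 or Max Dep replicate 3, and Ppp1r3c only without Min Dep replicate 2; without sham replicate 1, sham replicate 2, Min Dep replicate 1, Min Dep replicate 3 or Max Dep replicate 1 neither was called, with differences of -2.11 to -1.998 for Phkg1 and -1.998 to -1.82 for Ppp1r3c. Against sham, Phkg1 stayed called in Max Dep without sham replicate 3, Min Dep replicate 2 or Min Dep replicate 3, and in Min Dep without sham replicate 3, Min Dep replicate 2 or Max Dep replicate 3, and Ppp1r3c in neither. Signs turned for Max Dep against Min Dep in Gys1 (-1.01 to 0.23) and Pygm (-0.58 to 0.80), and for knockout CLP in Gys1 (-0.32 to 0.81), Phka1 (-0.58 to 0.33), Phkb (-0.41 to 1.37) and Pygm (-1.20 to 1.36), none of them called. Against sham they turned for wild-type CLP in Pygb (-0.37 to 0.40), Pygm (-0.84 to 0.04) and Ugp2 (-0.53 to 0.18), for Max Dep in Gbe1 (-0.22 to 0.91), Phka1 (-1.24 to 0.07), Phkb (-0.27 to 0.19), Pygm (-1.07 to 0.18) and Ugp2 (-0.24 to 0.87), and for Min Dep in Pygb (-0.10 to 1.43) and Pygm (-1.14 to 0.12), also not called. The cause was not tested.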
